A study of Mus musculus with 60 samples.

Results

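Primary hepatocytes of control mice were compared after 12 h with hepatocyte growth factor (HGF) and before HGF was added. The comparison holds 6 replicate cultures of 30 in the series, 3 untreated and 3 treated, picked by the genotype, treatment and time in the sample titles, and every probe of the array was kept. Each replicate was read on 2 two-colour arrays with exchanged dyes, Cy5 and Cy3, so 12 arrays of 60 were used. The second channel held RNA pooled from wild-type hepatocytes, and every value below is taken as a log2 ratio to that common reference. Neither the labels nor the file state which channel is the numerator, so that both arrays of a replicate are already turned to sample over reference is an assumption, on which the direction of every value and fold here rests. The control mice were C57BL males of 9 to 10 weeks, an age also given for the knock-out mice used below. The control mice carried 1 copy of a Cre recombinase gene according to the labels of some of the arrays, whose promoter those labels do not name. Hepatocytes were plated, kept without serum and given recombinant human HGF at 50 ng/ml on the following day. Another label field of the treated samples reads 50 nM and 0.5 h, and the titles and source names, which read 12 h, were followed here. The cultures of a group came from 3 mice, and the labels do not tell whether the same mice served both times. An untreated culture kept for 12 h was not analysed here, so the effect of HGF and of 12 further hours of culture cannot be told apart. Knock-out cells, used below for 1 contrast, came from Alb-Cre +/-; Met Fl/Fl mice of strain 129SV/C57BL6, in which the albumin promoter drives Cre in hepatocytes, so strain and Met status cannot be told apart.

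HGF is the ligand of Met, a receptor tyrosine kinase on the surface of hepatocytes and other epithelial cells. Binding of HGF activates the ERK and PI3-kinase pathways, and in the liver it is known for driving hepatocyte division, spreading and motility after injury. The actin and tubulin skeleton, integrins and actin-binding proteins carry out the change of cell shape, whereas cytochrome P450 enzymes, urea cycle enzymes and plasma proteins are the products of the differentiated hepatocyte.

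Each array gave values for 20563 to 21275 of 21997 probes. Arrays were centred on their median, the 2 arrays of a replicate were averaged, and a probe was tested where at least 2 of 3 replicates of both groups had a value on both dyes. This left 20401 probes, of which 14963 carried 1 gene symbol and stood for 13511 genes. The labelled cell type could not be checked by level, since the reference was itself hepatocyte RNA and marker genes have no level of their own here. The untreated replicates were less alike than the treated ones. Correlations between treated replicates were 0.509 to 0.637 over all probes with values, and those between untreated replicates were 0.307, -0.085 and -0.266. Untreated replicate 1 was closer to the treated replicates (0.486, 0.508 and 0.448) than to its own group. Untreated replicate 2 correlated with the treated ones at 0.172, 0.0962 and 0.309, and replicate 3 at -0.0675, -0.0847 and -0.208. The Cy5 array of untreated replicate 3 correlated below -0.3 with all 5 other Cy5 arrays of the comparison (median -0.438), so its direction is not settled. Median correlations with the other Cy3 arrays were also low for the Cy3 arrays of untreated replicates 3 (-0.0861) and 2 (0.179). The SDs of their values were 0.318 and 0.494. The remaining Cy3 arrays stood at 0.691 to 0.72, with SDs of 0.672 to 0.987. Turning the sign of 1 array does not bear on these Cy3 arrays. The overall count of calls and most list counts are given below without untreated replicate 3, and several also with the sign of its Cy5 array turned. The 2 dyes of a replicate also opposed each other, with correlations of -0.487 to -0.0872, and the array set of untreated replicate 3 (B) differed from that of the other 5 replicates (C). The assumed numerator was not tested against these opposed pairs. The part of dye and array set in the results was not tested beyond these alternatives.

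After 12 h, Ccn2 and some genes of the cytoskeleton, cell adhesion and calcium-binding proteins were higher, such as Msn, Itga3, Tubb3, Anxa2 and S100a6. Part of the interferon-response, cytochrome P450 and plasma protein genes were lower, such as Isg15, Cyp2e1 and Ahsg. In each of these lists except complement and coagulation, more members missed the test than passed it. A call means an adjusted p below 0.05 (limma, Benjamini-Hochberg over all 20401 probes). With that rule 817 probes were called, 4.0% of those tested: 375 were higher (1.84%) and 442 were lower (2.17%). With all arrays scaled to equal spread 196 were called, 76 higher and 120 lower. Counted by gene, with 1 probe for each, 656 of 13511 were called (4.86%), 293 of them higher (2.17%) and 363 lower (2.69%). The replicates of the groups did not overlap at 4664 probes (22.9%), which included 806 of the 817, and at 3442 genes (25.5%). Genes named below for their size had to meet this condition, so the separation of their replicates is no separate support. Both groups share 1 estimate of the spread with all 10 groups of the series, and that estimate is smaller than the spread of the untreated cells (median SD over probes of 0.243, against 0.144 at 12 h). When each group had its own weight according to its spread, 543 probes were called, of which 521 were among the 817. In a fit of the 6 replicates alone 4 probes were called and 2638 had an unadjusted p below 0.05.

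The count of calls also moved with the library left out and with the dye. Without untreated replicate 3, 344 probes were called (1.78%; 136 higher and 208 lower), and 300 of them were among the 817. The counts were 1075 without untreated replicate 1 (5.81%) and 519 without untreated replicate 2 (2.71%). They were 347 without treated replicate 1 (1.76%), 262 without treated replicate 2 (1.33%) and 504 without treated replicate 3 (2.49%). With the sign of the doubted array turned, 878 probes were called, 269 higher and 609 lower, and 560 of these were among the 817. The Cy5 arrays alone gave 699 higher and 251 lower calls, of which 328 were among the 817, and the Cy3 arrays alone gave 468 higher and 636 lower, of which 383 were. Over the tested probes the 12 h difference on Cy5 arrays correlated with that on Cy3 arrays at -0.308 (-0.0364 without untreated replicate 3), as a description. The sign was the same on both dyes at 37.7% of the tested probes and at 780 of the 817 called (95.5%), a share that averaging the dyes itself favours. In what follows a call is said to hold in all 4 checks where it was also made with group weights, without untreated replicate 3, with that array turned and with the dye profiles removed. The dye profiles are the 3 leading patterns over probes of the Cy5 minus Cy3 difference, regressed out of every array before each dye's mean was subtracted. The strictest alternatives are not among the 4: equal scaling (196 calls), treated replicate 2 left out (262) and the 6 replicates alone (4). By gene the calls were 2.1% without untreated replicate 3, 5.17% with the array turned and 8.22% with the dye profiles removed. All 4 held for 187 genes (1.38%), 65 higher (0.481%) and 122 lower (0.903%). Of the 187, 14 have no value in untreated replicate 3, among them Cp, Lbp, Hspb1, C9 and Vtn, so the checks on that replicate and its array do not bear on their own values.

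**Figure D1:**
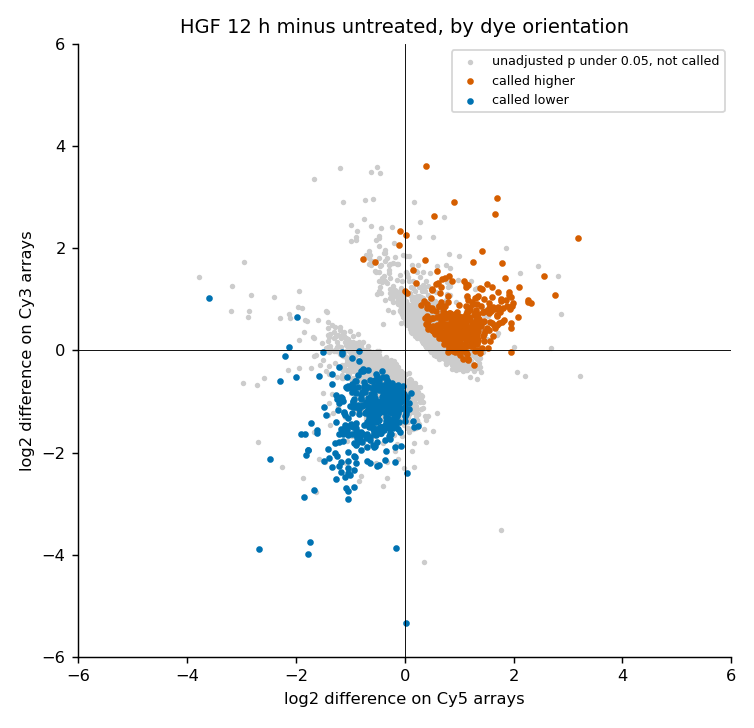
The 12 h log2 difference on the Cy5 arrays (x axis) against that on the Cy3 arrays (y axis) for the 3657 probes with an unadjusted p below 0.05, with called higher probes in orange, called lower ones in blue and the others in grey. Of the 817 called probes 780 lie in the quadrants where both dyes have 1 sign.

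Ccn2, which encodes connective tissue growth factor, a secreted matricellular protein and a known target of the YAP coactivator, had the highest difference among the genes chosen. Its log2 ratios were 1.09, 0.31 and -0.32 in untreated replicates 1, 2 and 3 and 2.90, 3.09 and 3.14 in treated replicates 1, 2 and 3. All 3 treated cultures lay well above all 3 untreated ones. The difference was 2.69 ± 0.45 (log2, SE), a 6.44-fold rise with an adjusted p of 0.0018, and it was 2.35 without untreated replicate 3 (adjusted p = 0.0162). Of the 16 tested genes listed as YAP targets, 4 were higher and none was lower, with a median difference of 0.389 against 0.0228 for all genes. Without untreated replicate 3 the list had 1 higher call, and with the doubted array turned 2 higher and 1 lower. The others called were Ankrd1 (0.99), Crim1 (0.76) and Lats2 (0.51), a kinase that restrains YAP. Each of these 3 calls was lost in 5 of the 6 fits that left out a replicate. For example, without untreated replicate 3 the adjusted p was 0.225 for Ankrd1 and 0.205 for Lats2, and without treated replicate 2 it was 0.0924 for Crim1. A second Lats2 probe differed by 0.17. Ccn1, the closest relative of Ccn2 in the list, differed by 1.03 and was not called (adjusted p = 0.171).

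Among actin and adhesion genes, 10 of 41 tested were higher and none was lower, with a median difference of 0.305. Msn, which encodes moesin, a linker of actin to the plasma membrane, had ratios of -0.46, -0.37 and -1.13 in untreated and 0.92, 0.81 and 0.91 in treated replicates. The groups were separated by more than their own ranges, and the rise was 1.53 ± 0.16 (2.89-fold, adjusted p = 3.86e-05). Actn1, encoding the actin crosslinker alpha-actinin, rose by 1.33 ± 0.26 from ratios of 0.44, -0.01 and -0.71 to 1.16, 1.14 and 1.40 (adjusted p = 0.00552). Itga3, the alpha chain of a laminin-binding integrin, had ratios of -0.26, -0.09 and -0.30 before and 0.80, 0.67 and 0.75 after HGF. Its replicates were tight in both groups, and the rise of 0.96 ± 0.11 had an adjusted p of 4.02e-05. Itgav, the alpha chain of vitronectin-binding integrins, was higher by 1.37 ± 0.30 (adjusted p = 0.0116), a call that was lost without untreated replicate 3 (0.95, adjusted p = 0.0937), and its other probes differed by -0.08 and 1.11. The remaining calls were Tpm1, Cfl1, Itga5, Actn4, Arpc2 and Ezr, from 1.31 for Tpm1 down to 0.48 for Ezr, and all 6 were lost without untreated replicate 3. Msn, Actn1 and Itga3 held in all 4 checks. Without untreated replicate 3 the list had 3 higher calls, without each treated replicate in turn 5, and with the doubted array turned 4 higher and 1 lower. Actb, the cytoplasmic actin itself, differed by 0.41 (adjusted p = 0.29), and Vcl, encoding vinculin, by -0.56 (adjusted p = 0.077).

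Tubulin genes, which encode the subunits of microtubules, were higher for 5 of 12 tested and lower for none, with a median difference of 0.61. Tubb5 had ratios of 0.23, 0.37 and -0.83 in untreated replicates and of 1.08, 1.09 and 1.09 in treated ones. The treated values were almost identical, and the rise of 1.16 ± 0.23 had an adjusted p of 0.00573. Tubb3 rose by 1.08 ± 0.14 (2.12-fold, adjusted p = 0.000123) from ratios of 0.43, 0.13 and -0.14 to 1.17, 1.22 and 1.29. Tuba1a rose by 1.37 ± 0.27 (adjusted p = 0.00623) from ratios of -0.91, -0.36 and -1.29 to 0.49, 0.55 and 0.49, but its adjusted p was 0.191 with the doubted array turned. Tuba1b (0.77) and Tuba4a (0.70) were the other calls, and both were lost without untreated replicate 3 (adjusted p = 0.101 for Tuba4a, whose second probe differed by -0.00583). Leaving out untreated replicate 3 or treated replicate 2 left 3 calls in the list, as did turning the doubted array. The medians of the tubulin list were above 0 on both dyes, 0.948 on Cy5 and 0.188 on Cy3 arrays, and those of the actin list were 0.724 and 0.0257.

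Keratins, S100 proteins and annexins, the last 2 being calcium-binding proteins of membranes and cytoskeleton, gave 6 higher and 1 lower call among 21 tested. S100a6, encoding calcyclin, had ratios of -1.53, -1.90 and -0.63 in untreated and 0.16, 0.28 and 0.32 in treated replicates. No untreated culture reached a treated one, and the rise was 1.61 ± 0.23 (3.05-fold, adjusted p = 0.000331). Anxa2, encoding a membrane-binding annexin, rose by 1.498 ± 0.212 from ratios of -0.08, -0.21 and -0.92 to 1.08, 1.03 and 1.18 (adjusted p = 0.000414). Anxa3 rose by 1.92 ± 0.36 from ratios of -0.19, 0.13 and -1.53 to 1.40, 1.40 and 1.38 (adjusted p = 0.0044), and untreated replicate 3 was its lowest value. S100a11 rose by 0.74 and Krt7, a keratin of bile duct epithelium, by 0.69 ± 0.12 (adjusted p = 0.00199). Krt8, a keratin that hepatocytes themselves make, was higher by 0.72, a call lost without treated replicate 2 (5 higher calls then remained in the list), and its partner Krt18 differed by -0.29 (adjusted p = 0.39). Krt23 fell by 0.89 ± 0.14 (adjusted p = 0.000683). 6 of these 7 calls, all but Krt8, held in the 4 checks. Over the whole list, however, the median was 0.59 on Cy5 and -0.222 on Cy3 arrays.

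**Figure D2:**
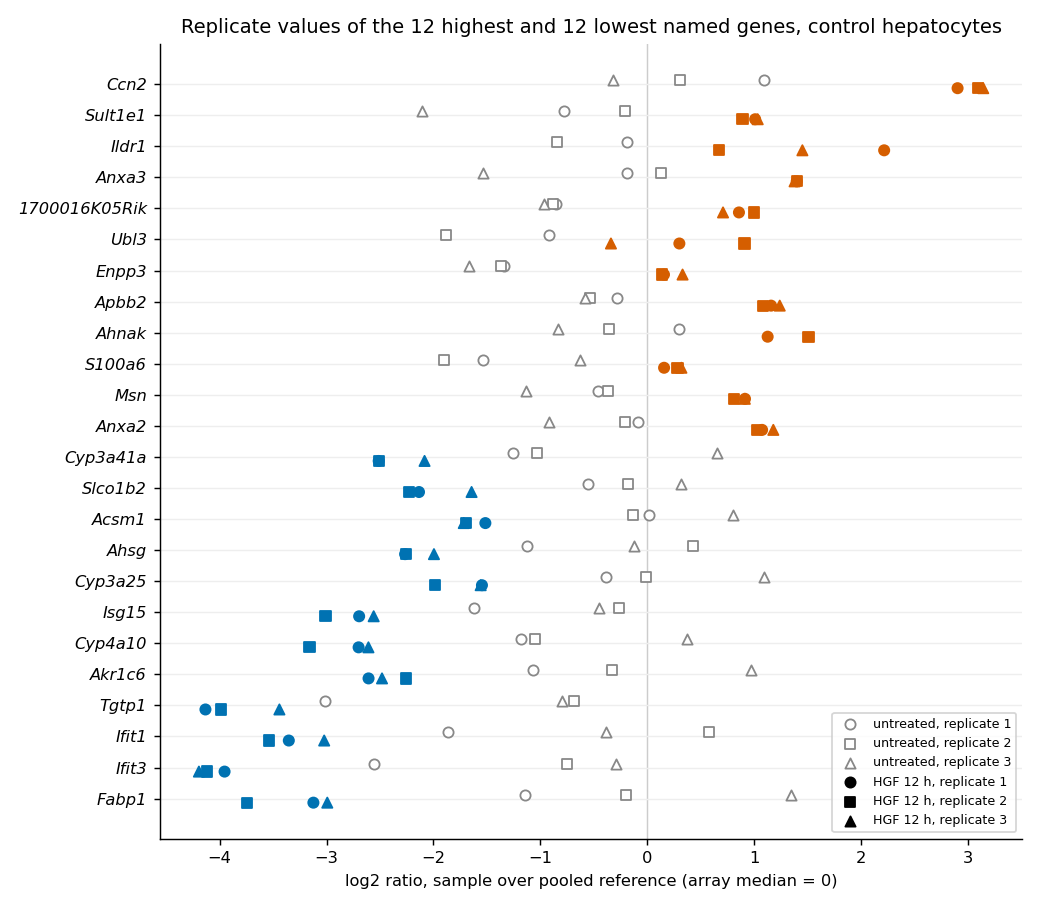
Log2 ratio to the reference (x axis) of the 12 highest and 12 lowest genes named by size, with open points for untreated and filled points for 12 h replicates and 1 marker shape per replicate number. The treated replicates of Ccn2 sit between 2.90 and 3.14 and those of Isg15 between -3.01 and -2.56, outside the untreated range in both cases. Only called genes of 1 sign on both dyes whose groups did not overlap could enter, so the separation was set by that choice.

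Heat shock proteins, chaperones of the cytosol and mitochondria, gave 3 higher calls among 21 tested, with a median of 0.349 on average but of 0.755 on Cy5 and -0.076 on Cy3 arrays. Hspb1, a small heat shock protein that binds actin, was higher by 1.12 ± 0.28 (adjusted p = 0.0254), and the call was lost when any treated replicate was left out (highest adjusted p 0.0756, without replicate 3). Without untreated replicate 3 the list had 1 higher and 1 lower call. Of 46 cytosolic ribosomal protein genes 5 were higher, and the median was 1.06 on Cy5 and -0.158 on Cy3 arrays. Only 1 of those 5 calls had 1 sign on both dyes, and none was made without untreated replicate 3 or with the doubted array turned, while 30 were made with the dye profiles removed. No direction is therefore given for ribosomal protein genes.

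Genes of the pathway itself were looked at next, beside the 4.86% of all genes that were called. Met, the receptor, had ratios of 0.26 and 0.19 in the 2 untreated replicates with a value and of 0.35, 0.43 and 0.57 in treated ones, and the difference of 0.22 ± 0.19 was not called (adjusted p = 0.616). The labels do not say whether the Met probe falls within the deleted exons, so it checks neither genotype label. Of 23 tested genes for the receptor, its adaptors and HGF activation 2 were called, 8.7%, and both encode PI3-kinase subunits. The catalytic subunit gene Pik3cb was higher by 0.99 ± 0.25 and the regulatory subunit gene Pik3r1 was lower, with a difference of -0.91 ± 0.23. Neither call held without untreated replicate 3 (adjusted p = 0.181 for Pik3cb and 0.137 for Pik3r1). Among 25 immediate early transcription factor genes, which respond to growth factors within the first hour, none was higher and 2 were lower (8.0%). Btg2, an antiproliferative gene, fell by 0.90 ± 0.18 (adjusted p = 0.00665), and Atf3 was lower by 0.76 ± 0.17, a call lost without treated replicate 1 or 2 (adjusted p = 0.0636 without replicate 2). Fos differed by -0.10 (adjusted p = 0.823), Egr1 by 0.01 (adjusted p = 0.99) and Myc by 0.82 ± 0.50 (adjusted p = 0.427). Of 33 cell cycle and replication genes 1 was called (3.03%), Mcm4, a subunit of the replicative helicase, with a difference of 0.98 that was lost without treated replicate 2 (0.76, adjusted p = 0.152) or 3. The median of the cell cycle list was 0.126. Changes of 0.5 on the log2 scale were recovered at 19.4% in data simulated with 1 spread per probe for all groups. A gene without a call may therefore still have moved by that much.

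Interferon-response and antigen presentation genes were lower for 12 of 29 tested and higher for none. Their median difference was -0.909, and it was below 0 on both dyes (-0.394 on Cy5 and -1.30 on Cy3 arrays). The list had 8 lower calls without untreated replicate 3 and 15 with the doubted array turned. Isg15, a ubiquitin-like modifier induced by interferon, had ratios of -1.63, -0.26 and -0.45 in untreated and -2.70, -3.01 and -2.56 in treated replicates. Untreated replicate 1 was the lowest of its group and still lay above every treated culture. The fall was 1.98 ± 0.25 (3.93-fold, adjusted p = 9.66e-05). Ifit1 and Ifit3 encode proteins that bind foreign RNA. Ifit1 went from -1.87, 0.57 and -0.38 to -3.35, -3.54 and -3.02, a difference of -2.75 ± 0.60 (adjusted p = 0.0115), and Ifit3 from -2.56, -0.75 and -0.29 to -3.95, -4.12 and -4.19, a difference of -2.89 ± 0.59 (adjusted p = 0.00818). Both spread widely among the untreated replicates. The Ifit1 call was lost without untreated replicate 2 (-2.18, adjusted p = 0.0657) or treated replicate 2, and that of Ifit3 without untreated replicate 3 (-2.43, adjusted p = 0.0559). Igtp, an interferon-inducible GTPase, had ratios of -1.07, -0.65 and 0.15 before and of -1.95, -2.37 and -1.77 after HGF (adjusted p = 0.00125). Tap1, a subunit of the peptide transporter for antigen presentation, fell by 1.34 ± 0.21 from ratios of -0.80, -0.38 and -0.23 to -1.85, -1.96 and -1.62 (adjusted p = 0.000779). Irgm1 (-1.09), Mx2 (-1.06) and the immunoproteasome subunit Psmb10 (-0.99) also held in all 4 checks. H2-K1, a class I antigen gene, and Gbp3 differed by 1.06 and 1.00 in the other direction and were not called (adjusted p = 0.28 and 0.43).

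The promoters of the 3 called interferon genes with the lowest treated ratios are shown because they fell together. The windows reach from 250 bases before to 50 bases after the annotated start, taken from RefSeq on GRCm38.p6 and written 5′ to 3′ on the gene's strand. Capitals mark matches, on either strand, to GAAA followed by 2 bases of any kind and GAAA again, the core letters of the interferon-stimulated response element, and overlapping matches are joined. Isg15 lies at chr4:156200769-156201068 on the minus strand, Ifit1 at chr19:34640639-34640938 and Ifit3 at chr19:34583279-34583578, both on the plus strand.
Isg15: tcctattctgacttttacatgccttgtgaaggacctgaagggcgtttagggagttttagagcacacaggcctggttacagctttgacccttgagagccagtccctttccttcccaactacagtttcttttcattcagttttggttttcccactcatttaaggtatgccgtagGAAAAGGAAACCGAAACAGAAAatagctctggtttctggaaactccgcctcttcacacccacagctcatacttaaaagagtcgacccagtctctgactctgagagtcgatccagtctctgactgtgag
Ifit1: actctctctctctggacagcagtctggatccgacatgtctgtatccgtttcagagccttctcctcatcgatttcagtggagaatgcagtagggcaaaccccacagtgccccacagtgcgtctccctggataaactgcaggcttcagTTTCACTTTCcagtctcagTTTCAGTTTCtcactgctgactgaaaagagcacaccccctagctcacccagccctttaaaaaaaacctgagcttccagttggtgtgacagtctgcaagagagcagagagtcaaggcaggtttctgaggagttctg
Ifit3: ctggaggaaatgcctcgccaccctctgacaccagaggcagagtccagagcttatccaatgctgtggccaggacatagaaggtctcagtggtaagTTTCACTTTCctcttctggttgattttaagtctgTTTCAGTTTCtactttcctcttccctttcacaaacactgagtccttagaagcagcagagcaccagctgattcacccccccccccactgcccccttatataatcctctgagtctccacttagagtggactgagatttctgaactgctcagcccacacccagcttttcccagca
Isg15 had 3 overlapping matches that begin 78, 72 and 66 bases before the start. Ifit1 had matches 104 and 85 bases before it, and Ifit3 had them at 156 and 122 bases. The motif was found in 943 of 27025 promoter windows of this length (3.49%) and in 11 of the 24 windows of tested interferon-list genes (45.8%). Within the list it was in 6 of 11 windows of genes called lower (Ifit1, Ifit3, Igtp, Irgm1, Isg15 and Rsad2) and in 5 of 13 windows of genes not called. A match describes these letters only.

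Cytochrome P450 genes, whose enzymes oxidise drugs, steroids and fatty acids, were lower for 16 of 39 tested and higher for none. The median difference was -0.76, with -0.624 on Cy5 and -1.11 on Cy3 arrays. Cyp2e1, the ethanol-oxidising P450, had ratios of -0.40, -0.06 and 0.68 in untreated and -1.63, -1.73 and -1.49 in treated replicates. All treated values were below all untreated ones, and the fall was 1.69 ± 0.24 (3.22-fold, adjusted p = 0.000331). Cyp2f2 fell by 1.46 ± 0.28 from ratios of -0.25, -0.03 and 0.71 to -1.31, -1.44 and -1.20 (adjusted p = 0.00409). Cyp2d26 (-1.22), Cyp4b1 (-1.20) and Cyp2d22 (-0.72) also held in all 4 checks, as did Cyp7b1 (-0.84), an oxysterol hydroxylase, whose call was lost without untreated replicate 2 or treated replicate 2 (-0.78, adjusted p = 0.0771). The Cyp2d22 call was lost without untreated replicate 2 or treated replicate 1 or 2. The calls with the largest differences rested on untreated replicate 3 among others. Cyp4a10 differed by -2.20 ± 0.62 (adjusted p = 0.0458) and Cyp3a25 by -1.93 ± 0.45 (adjusted p = 0.0194), and without untreated replicate 3 they stood at -1.71 (adjusted p = 0.22) and -1.50 (adjusted p = 0.119). Members of the 2c, 3a and 4a subfamilies are close in sequence, and cross-hybridisation between them was not tested. Cyp7a1, the rate-limiting enzyme of bile acid synthesis, differed by -0.05 (adjusted p = 0.96) and Cyp1a2 by -1.26 (adjusted p = 0.077). Leaving out treated replicate 2 left 4 of the 16 calls in the list, and leaving out untreated replicate 3 left 8.

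Conjugating and other drug enzymes were lower for 14 of 38 tested and higher for none, with a median of -0.379. Fmo1, a flavin monooxygenase, had ratios of 1.11, 0.85 and 0.63 in untreated and -0.92, -0.54 and -0.71 in treated replicates, and fell by 1.59 ± 0.24 (adjusted p = 0.000683). All untreated cultures lay above the reference and all treated ones below it. Gsta3, a glutathione S-transferase, fell by 0.97 ± 0.12 from ratios of 0.44, 0.43 and 0.73 to -0.48, -0.40 and -0.43 (1.96-fold, adjusted p = 5.77e-05). Gstm2, of the mu class of the same family, fell by 1.02 ± 0.16 from 0.53, 1.33 and 0.91 to -0.06, -0.16 and -0.09 (adjusted p = 0.000999), while Gstm1 differed by 0.42 (adjusted p = 0.071). Mgst1 (-0.99), Ugt1a6a (-0.94) and the epoxide hydrolase Ephx1 (-0.76) held in all 4 checks, although Ephx1 was not called without untreated or treated replicate 2. The list kept 6 calls without treated replicate 2 and 8 without untreated replicate 3.

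Among retinol and alcohol dehydrogenases 3 of 21 were lower and 1 was higher. Adh1, the main hepatic alcohol dehydrogenase, had ratios of -0.64, 0.40 and 0.78 in untreated and -1.59, -1.42 and -1.28 in treated replicates. The untreated values were spread over more than 1 log2 unit, but none was as low as a treated value, and the fall was 1.61 ± 0.27 (3.05-fold, adjusted p = 0.0014). Rdh10, which oxidises retinol, was the higher call at 1.09 ± 0.25, and it was lost without untreated replicate 3 (0.97, adjusted p = 0.0834), without treated replicate 2 or 3 and with the doubted array turned (adjusted p = 0.279).

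Enzymes of amino acid breakdown and the urea cycle were lower for 10 of 36 tested and higher for 1, with a median of -0.257. Cps1, which makes carbamoyl phosphate at the entry of the urea cycle, had ratios of -0.41, -0.30 and 0.15 before and -1.44, -1.29 and -1.61 after HGF. The fall was 1.26 ± 0.23 (2.40-fold, adjusted p = 0.00293). Otc, the next enzyme of the cycle, fell by 1.35 ± 0.23 from -0.37, -0.39 and 0.59 to -1.45, -1.50 and -1.28 (adjusted p = 0.002). Both genes were about 1 log2 unit or more below the reference in every treated culture. Hgd, which breaks down homogentisate from tyrosine, fell by 1.31 ± 0.18 from 0.51, 0.45 and 0.89 to -0.82, -0.63 and -0.63 (adjusted p = 0.000166), and its second probe was also called, at -0.73. The methionine cycle genes Bhmt (-1.02) and Mat1a (-0.78) held in all 4 checks, although Bhmt was not called without untreated replicate 2 or treated replicate 2 or 3. Cbs, which draws homocysteine out of that cycle, was the higher call at 0.61, and it was lost in 5 of the 6 fits that left out a replicate. The list had 5 lower calls and no higher one without untreated replicate 3.

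Of 31 genes of fatty acid and triglyceride synthesis 4 were lower, of 29 of fatty acid oxidation and ketogenesis 3, of 21 of cholesterol synthesis and uptake 2, and of 27 of bile acid synthesis and transport 7. These counts were 2, 1, 1 and 2 without untreated replicate 3. Leaving out each replicate in turn gave 1 to 4 lower calls for synthesis, 0 to 4 for oxidation (0 without treated replicate 2), 1 to 2 for cholesterol and 2 to 5 for bile acids. The medians on Cy5 and Cy3 arrays had opposite signs for synthesis (0.204 and -0.179), oxidation (0.0613 and -0.436) and cholesterol (0.184 and -0.37), and were -0.249 and -0.419 for bile acids. Fabp1, the abundant fatty acid carrier of hepatocytes, had ratios of -1.14, -0.20 and 1.34 in untreated and -3.12, -3.75 and -2.99 in treated replicates. Its untreated values spanned more than 2 log2 units. The difference was -3.29 ± 0.91 (9.77-fold, adjusted p = 0.0419), and the call was lost in 5 of 6 fits that left out a replicate, with an adjusted p of 0.201 without untreated replicate 3. Elovl2, an elongase of polyunsaturated fatty acids, fell by 0.87 ± 0.18 (adjusted p = 0.00665) and Dhcr7, the last enzyme of cholesterol synthesis, by 0.86 ± 0.16 (adjusted p = 0.00409). Scp2, a sterol carrier, differed by -1.74 ± 0.32 over 2 untreated and 3 treated replicates (adjusted p = 0.0044). Slco1b2, a bile acid and drug uptake transporter, differed by -1.86 on the probe chosen but by 0.22 and 0.05 on its other probes. Fasn, fatty acid synthase, differed by -1.28 and was not called (adjusted p = 0.06).

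Of the plasma proteins made by hepatocytes, some were lower after 12 h and none of the 3 lists tested had a higher call. Complement and coagulation genes were lower for 16 of 29 tested, the highest share of any pathway list, with none higher, and their median was -0.792 (-0.406 on Cy5 and -1.16 on Cy3 arrays). F10, coagulation factor X, had ratios of -0.26, -0.18 and 0.09 in untreated and -1.21, -1.25 and -0.91 in treated replicates, and fell by 1.00 ± 0.15 (adjusted p = 0.000515). Its groups were separated in every replicate. Cfi, the protease that cuts C3b, fell by 1.39 ± 0.28 from -0.56, 1.20 and -0.04 to -1.23, -1.27 and -1.07 (adjusted p = 0.00573). F13b (-1.29), Plg (-1.24), C4bp (-1.04), F5 (-0.97), Mbl1 (-0.93), Vtn (-0.91), C9 (-0.81) and F2, the prothrombin gene (-0.79), completed the 10 members that held in all 4 checks, although F2 was not called without treated replicate 1 and Vtn without treated replicate 1 or 2. The list had 9 to 15 lower calls when any replicate was left out, 10 without untreated replicate 3 and 9 without treated replicate 1, and 18 with the doubted array turned.

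Among albumin, apolipoprotein and other secreted protein genes 14 of 35 were lower and none was higher, but the list's median of -0.384 was 0.16 on Cy5 and -0.867 on Cy3 arrays. Ahsg, encoding fetuin-A, fell by 1.90 ± 0.34 from ratios of -1.12, 0.43 and -0.12 to -2.27, -2.26 and -2.00 (3.73-fold, adjusted p = 0.0031). Asgr1, a subunit of the asialoglycoprotein receptor and a surface marker of hepatocytes, fell by 1.499 ± 0.205 from 0.09, 0.90 and 0.70 to -1.04, -0.99 and -0.78 (adjusted p = 0.00019). Apoc4 fell by 1.67 ± 0.29 from -0.27, 0.38 and 0.85 to -1.35, -1.46 and -1.23 (adjusted p = 0.00193). All 3 held in the 4 checks and had non-overlapping groups. Alb itself, the gene of serum albumin, had ratios of -0.10, -0.10 and -0.24 in untreated and -0.06, -0.03 and 0.02 in treated replicates, a difference of 0.12 ± 0.09 that was not called (adjusted p = 0.541). Ttr, encoding transthyretin, differed by -0.65 (adjusted p = 0.2). The list had 5 lower calls without untreated or treated replicate 2 and 6 without untreated replicate 3.

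Acute phase and iron proteins were lower for 7 of 26 tested, with a median of 0.0406 on Cy5 and -0.942 on Cy3 arrays. Lbp, the lipopolysaccharide-binding protein, fell by 1.02 ± 0.21 (adjusted p = 0.00834) and Cp, ceruloplasmin, by 0.91 ± 0.18 (adjusted p = 0.00834). Fgg, a fibrinogen chain, differed by -1.37 (adjusted p = 0.0254), a call lost in 4 of 6 fits that left out a replicate (adjusted p = 0.0908 without untreated replicate 2). Without that replicate the list had no call, and 7 without untreated replicate 3.

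**Figure D3:**
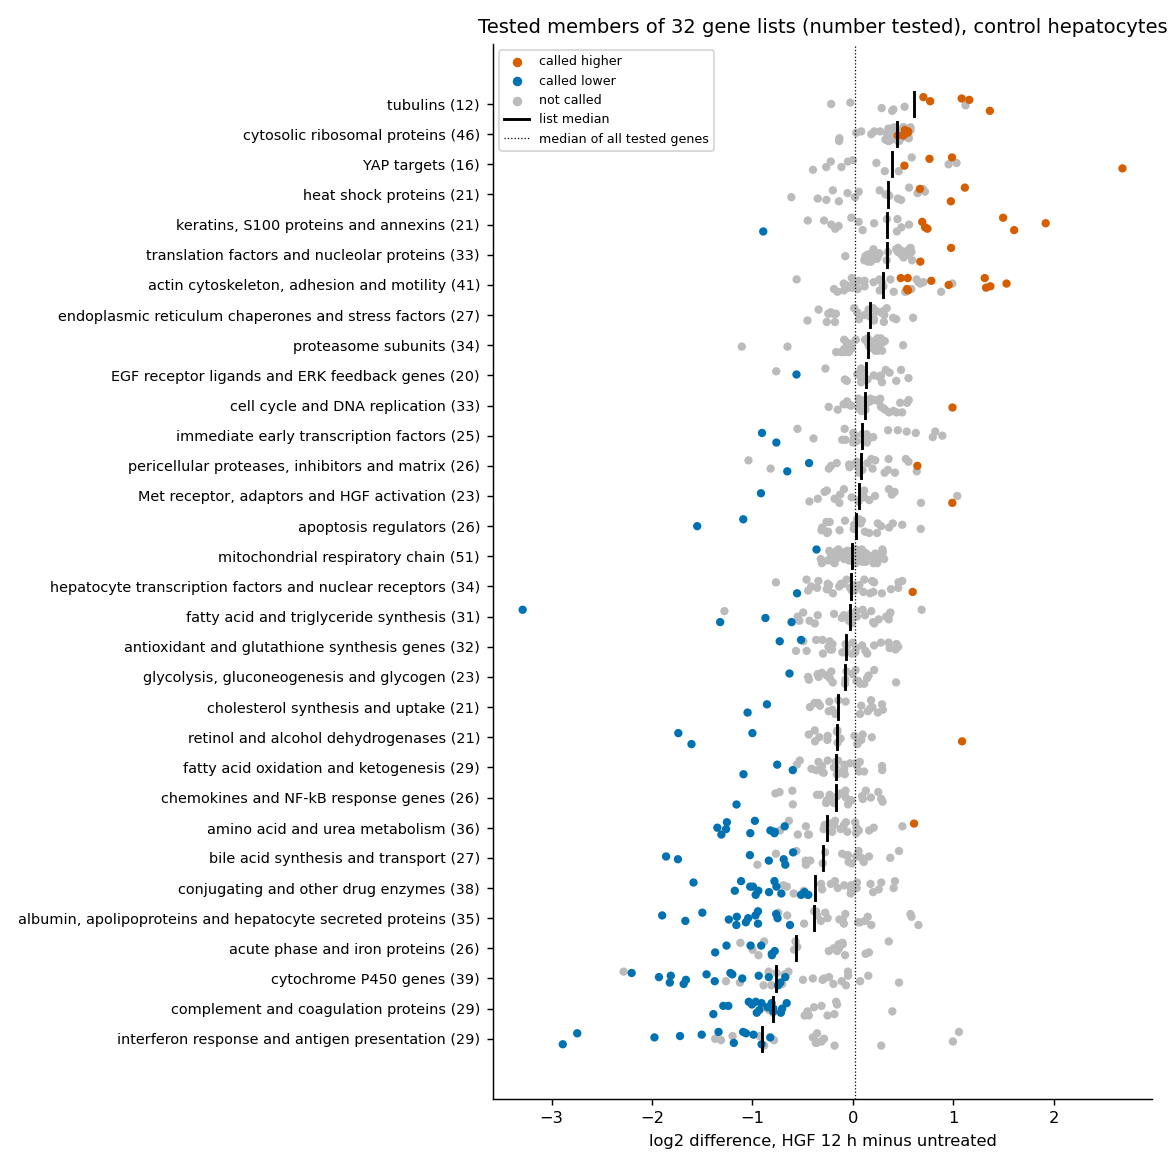
The 12 h log2 difference of every tested gene in the pathway lists (points), with the list's median as a bar, called higher genes in orange, called lower ones in blue, others in grey and the median of all genes (0.0228) as a dotted line. Cytochrome P450, complement and interferon lists lie mostly below 0 and tubulins mostly above.

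Cell type markers were set beside these groups, because in bulk RNA fewer cells of a type and less RNA per cell cannot be told apart. Of 9 tested hepatocyte markers 5 were lower, and their mean ratio was -0.40, 0.08 and 0.01 in untreated and -0.94, -1.08 and -0.87 in treated replicates. Of 9 Kupffer cell markers 2 were lower (C1qb and Mpeg1), with means of -0.05, 0.14 and -0.24 before and -0.30, -0.20 and -0.10 after HGF. The Mpeg1 call was lost without untreated replicate 2 or treated replicate 1 (adjusted p = 0.0615). C1qb had values in 2 untreated replicates, none in replicate 3, and an adjusted p of 0.04998. In the fit without untreated replicate 3 its difference was unchanged at -0.68, but its call was lost (adjusted p = 0.0735). The call was also lost without any treated replicate (up to 0.125). Of 9 endothelial markers none was called, and the means were -0.13, 0.01 and -0.12 before and -0.22, -0.17 and -0.34 after. Stellate cell markers gave 1 lower call among 11 (Col3a1, -0.80), and bile duct markers gave Krt7 higher and Cftr lower among 8, the latter lost in 4 of 6 fits that left out a replicate (adjusted p up to 0.0914). Col3a1 also had no value in untreated replicate 3, and it was not called with the dye profiles removed (adjusted p = 0.0624). None of 13 lymphocyte and 4 red blood cell markers was called. The part of a changed cell mixture in the gene groups above was not tested.

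Other genes were named for the size of their difference, among calls whose groups did not overlap. Apbb2, an adaptor that binds the amyloid precursor protein, had the smallest p among the genes named. It had ratios of -0.28, -0.53 and -0.59 before and 1.16, 1.08 and 1.24 after HGF, a rise of 1.63 ± 0.16 (3.09-fold, adjusted p = 1.97e-05), and its second probe rose by 0.815. Ahnak, a giant scaffold protein of the membrane skeleton, rose by 1.62 ± 0.30 on 1 of its 4 probes, with a value in 2 treated replicates (adjusted p = 0.0037), and the others were not called. The uncharacterised gene 1700016K05Rik rose by 1.75 ± 0.32 from -0.85, -0.88 and -0.97 to 0.86, 1.00 and 0.71 (adjusted p = 0.00284). Fas, a death receptor, fell by 1.55 ± 0.28 from -0.06, -0.17 and 0.38 to -1.46, -1.63 and -1.41 (adjusted p = 0.0037), and Acsm1, a medium-chain acyl-CoA synthetase, by 1.87 ± 0.36 (adjusted p = 0.00493). Each of these 5 held in all 4 checks. Sult1e1 (2.01), Ildr1 (1.97), Ubl3 (1.69), Enpp3 (1.67), Akr1c6 (-2.30), Tgtp1 (-2.35) and Rdh7 (-1.74) did not, and each lost its call in 2 or more of the fits that left out a replicate. Without untreated replicate 3 the adjusted p was 0.143 for Sult1e1, 0.155 for Enpp3, 0.126 for Akr1c6, 0.143 for Tgtp1 and 0.0943 for Rdh7. Without treated replicate 1 it was 0.0967 for Ildr1, and without treated replicate 2 it was 0.0777 for Ubl3, whose second probe differed by -0.03. The second Enpp3 probe differed by -0.00883 (adjusted p = 0.99). Ildr1 and Ubl3 had values in 2 untreated replicates.

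The control cells were also followed to 24 h. The difference between 24 h and 12 h was tested directly, without the untreated mean. The untreated group still entered the probe filter, and all 10 groups the shared spread. The median SD over probes was 0.269 at 24 h and 0.144 at 12 h. All 12 h arrays were of array set C. Both arrays of 24 h replicate 3 and the Cy3 array of replicate 2 were of set B. The part of array set here was not tested beyond the alternatives given below. Of 19023 tested probes 313 were called (1.65%), 123 higher (0.647%) and 190 lower (0.999%) at 24 h, and of 12664 genes 231 (1.82%). With group weights 41 probes were called, and in a fit of the groups compared alone 0 were (1892 with an unadjusted p below 0.05). S100a6 rose further by 1.83 ± 0.23 to a mean ratio of 2.09 at 24 h, and Tuba1a by 2.17 ± 0.27 to 2.68 (adjusted p = 0.000181 for each). Tubb3 fell back by 1.07 ± 0.14 to 0.15, and Gsta3 fell further by 0.90 ± 0.12 (adjusted p = 0.000181 for each). Hgd fell further by 0.91, F10 by 0.92 and Gstm2 by 0.70, with adjusted p-values of 0.00703, 0.00196 and 0.0296. In the interferon list Mx2 and Ifi47 were higher at 24 h than at 12 h, by 0.98 (adjusted p = 0.0112) and 0.94 (adjusted p = 0.0477). Ccn2 differed by -0.45 between the 2 times (adjusted p = 0.638), with a mean of 2.60 at 24 h, and Isg15 by 0.22, with a mean of -2.54. At the earlier time of 2 h the mean of Isg15 was -0.09.

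**Figure D4:**
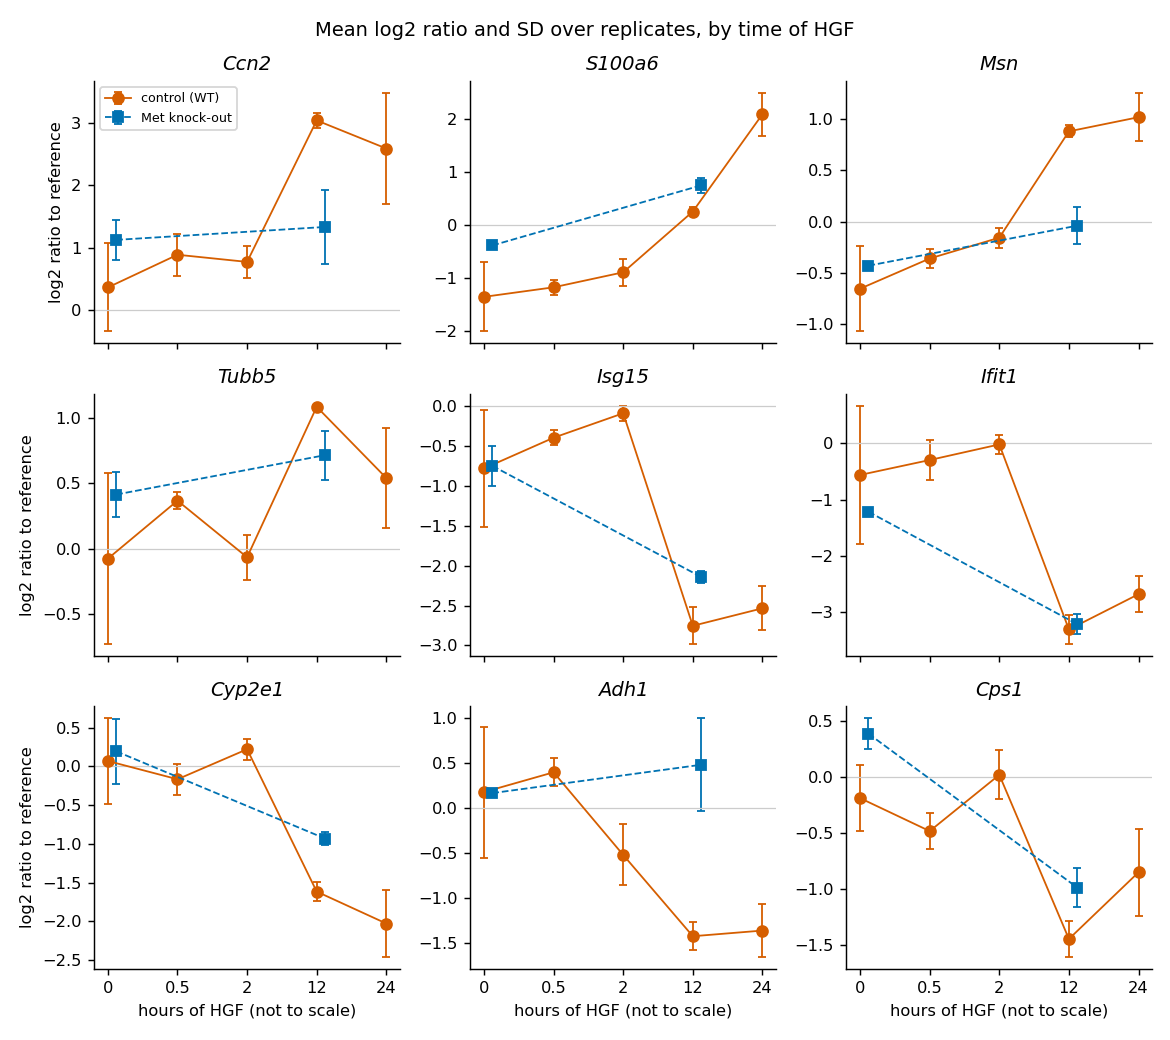
Mean log2 ratio ± SD of 9 genes at 0, 0.5, 2, 12 and 24 h of HGF in control cells and at 0 and 12 h in knock-out cells (x axis hours, not to scale, up to 3 replicates a point). S100a6 continues upward to 2.09 at 24 h while Isg15 stays near its 12 h level at -2.54.

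Knock-out cells were used to test whether the 12 h difference itself differed between genotypes (12 h minus untreated in knock-out, less the same in control). All 12 h arrays of both genotypes were of array set C. Untreated replicate 3 was of set A in knock-out and of set B in control cells, so array set was partly tied to time. The part of array set here was not tested beyond the alternatives given below. Of 18155 probes 9 were called, 0.0496% of those tested, 1 with a higher (0.00551%) and 8 with a lower response in knock-out cells (0.0441%), and 1106 had an unadjusted p below 0.05. Simulated differences of 1 on the log2 scale were recovered at 55.2% in this contrast, with 1 spread per probe set for all groups. Among the genes named above the test called Apbb2, Itga3, Tubb3 and Gsta3. Apbb2 rose in control cells and had a knock-out difference of -0.02, so the responses differed by -1.64 (95% interval -2.10 to -1.19, adjusted p = 0.00212). For Itga3 the knock-out difference was 0.12 and the responses differed by -0.83 (95% interval -1.15 to -0.51, adjusted p = 0.0331). For Tubb3 it was -0.06, with responses that differed by -1.15 (adjusted p = 0.0234), and for Gsta3 it was -0.06, with responses that differed by 0.91 (95% interval 0.57 to 1.25, adjusted p = 0.0323). Left-out replicates gave 1 to 11 calls, of which 1 to 7 were among the 9. Within array set C alone 1 probe was called, and 0 of the 9 were. The Cy3 arrays alone gave 0 calls by limma (1659 with an unadjusted p below 0.05).

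Several larger gaps did not pass this test. Ccn2 had a knock-out difference of 0.21, and the responses differed by -2.48 (95% interval -3.88 to -1.08, adjusted p = 0.306). Msn had 0.39, with a gap of -1.14 (-1.65 to -0.64, adjusted p = 0.121). Adh1 had 0.32, and its gap of 1.92 (1.15 to 2.70) had an adjusted p of 0.0511. Gstm2 had 0.11, with a gap of 1.13 (0.65 to 1.61, adjusted p = 0.0865). These intervals are not adjusted for the number of probes. For others the knock-out difference lay closer to the control one. Cps1 had -1.38 in knock-out and -1.26 in control cells (gap -0.12, interval -0.78 to 0.55), Isg15 had -1.40 and -1.98 (gap 0.58, interval -0.14 to 1.30), and Cyp2e1 had -1.13 and -1.69 (gap 0.56, interval -0.14 to 1.26). Of the 73 named genes lower in control cells and measured in both genotypes 68 had a knock-out difference below 0, and of the 35 higher 30 had one above 0. These genes were chosen by size or p, and the same shares over all called or tested genes were not counted. The counts therefore describe the named genes only and do not show a response common to both genotypes. By list, the knock-out median was -0.787 for interferon genes (control -0.909), -0.522 for cytochrome P450 genes (-0.76), -0.437 for complement and coagulation (-0.792), 0.03 for drug enzymes (-0.379), 0.118 for actin and adhesion (0.305) and 0.114 for tubulins (0.61). These medians were not tested against each other.

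**Figure D5:**
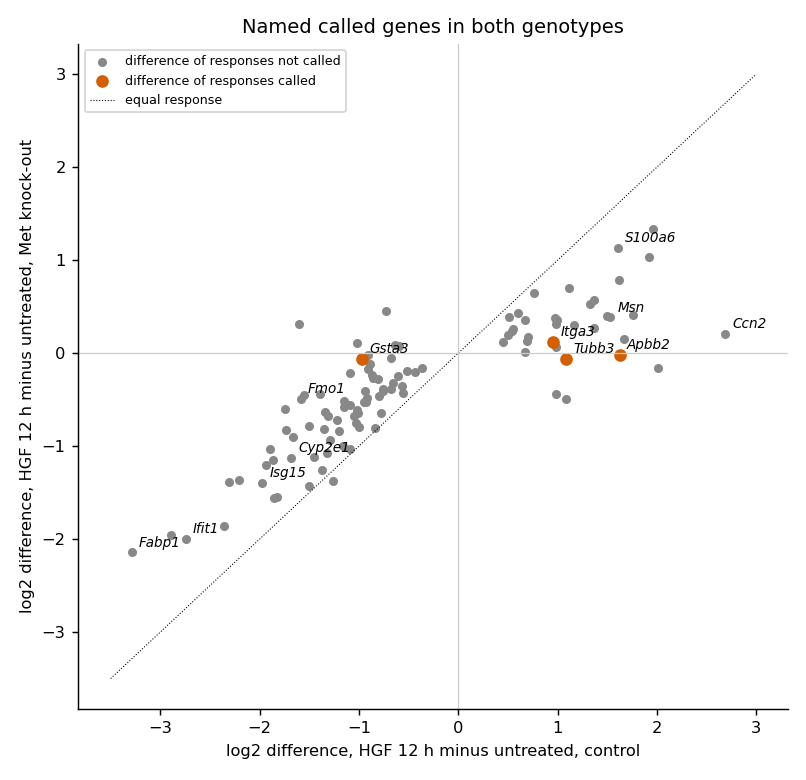
The 12 h log2 difference in knock-out cells (y axis) against that in control cells (x axis) for the 108 named genes called in control cells, with the diagonal of equal responses. The 4 genes whose responses differed by the test, Apbb2, Itga3, Tubb3 and Gsta3, lie near 0 on the knock-out axis.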

How the data were processed

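The deposited table holds log2 ratios of sample to reference for each two-colour array, as the authors processed them. The log base is inferred from the values (within ±11.6), the numerator is assumed, and the method of normalization was not given in the sources used here. Probes were named through GEO's platform annotation: of 21997 probes 16076 had 1 symbol (15877 updated through the RefSeq gene table, 199 as annotated), 288 several and 5633 none. Each array was centred on its median, both orientations of a replicate were averaged, and 10 group means over 30 replicates were fitted with limma 3.58.1 (lmFit, eBayes, R 4.3.3), two-sided, with Benjamini-Hochberg adjustment over all probes tested. Arrays set no depth, and 3 replicates a group limit the precision. For gene lists the probe with values on most arrays spoke for its gene. Named were the 12 highest and 12 lowest non-overlapping calls of 1 sign on both dyes, up to 4 members of each list by p, and Alb, Ccnd1, Egr1, Fos, Met and Myc; other members named were chosen after their values were seen. Members and lists were chosen with earlier results of these data known. Alternatives covered centring, scaling, filters, the samples fitted, weights, the replicate block, array set, dye, the sign of 1 array and each replicate left out; leaving out Gapdh control probes or a noisy knock-out replicate, and the list counts under the checks, were added after the data were seen. Replicate numbers were not used to pair the samples in the main fit. Deviations of same-numbered samples correlated at -0.202 to -0.0724. The doubted array also enters these correlations, so they cannot decide whether the same mice served both times. The scripts were tested on simulated data, where changes of 1 on the log2 scale were recovered at 68.7% and of 2 at 97%, with 6 false calls among 20201 unchanged probes. These data had independent replicates and 1 spread per probe in all groups. The wider spread of the untreated cells, the doubted array and the opposed dyes were not simulated, so the rates in the real data may differ.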

Additional observations from a re-analysis of the deposited data

Results flagged for a closer look

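The 12 h response differed between control and knock-out cells at 9 probes by the test of the difference itself (limma, Benjamini-Hochberg over 18155 probes). Within array set C alone, 0 of these 9 were called. The knock-out minus control difference of the log2 response was -1.64 for Apbb2, -1.15 for Tubb3, -0.834 for Itga3 and 0.908 for Gsta3, the genes described above. For Xirp2, a muscle actin-binding protein, it was -1.36, from a control response of 1.28 and a knock-out response of -0.08 (adjusted p = 0.00876). Rnf19b, a ubiquitin ligase, had -1.25, from 0.96 and -0.29 (adjusted p = 0.0197). A probe without a gene symbol had -1.36, from 0.52 and -0.84 (adjusted p = 0.0331). For 2 genes the control response was small and the value came from the knock-out side: 1700001D01Rik had -2.53, from 0.01 and -2.52, with 2 untreated knock-out replicates, and Dyrk1a, a protein kinase, had -2.55, from 0.41 and -2.14, with 2 treated knock-out replicates whose SD was 1.66. No group of 4 or more samples was available to test for a sample far from the others.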

How the results depend on the processing

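The number of calls at 12 h, 817, stayed within 1.5 times under no centring, the other probe filters, the array set term, each dye alone (328 of 950 calls shared on Cy5 and 383 of 1104 on Cy3) and the turned array. It was 196 (76 higher, 120 lower) with arrays scaled to equal spread, 4 with only the groups compared in the fit, 543 with group weights, 229 within array set C, 1400 with dye profiles removed and 1401 with single arrays, and 262 to 1075 with a replicate left out. The 9 differences of response became 41, 1, 13, 1, 26 and 52 in the same order, 19 on Cy5 and 0 on Cy3 arrays, and 1 to 11 with a replicate left out. The 313 calls of 24 h against 12 h became 57, 0, 41, 66, 507 and 713, 563 with the array set term, 115 on Cy5 and 385 on Cy3 arrays, and 99 to 535 with a replicate left out. The array set fits placed each replicate by its Cy5 array. Replicate 2 of control cells at 24 h was thus counted as set C, although its Cy3 array was of set B. With the replicate numbers as a replicate block the counts were 752, 3 and 275. Fewer genes or samples enter some of these fits, and otherwise the cause was not tested. Among 174 named genes, called ones kept their direction and call at 1861 settings, lost the call at 604 and turned at 8. On Cy5 arrays alone the difference turned to 0.0207 for Insig2, 0.035 for Mmp14, 0.0183 for Pex11a, 0.0107 for Slc2a2 and 0.105 for Uqcrc2, and on Cy3 arrays alone to -0.0257 for Rpl15, -0.168 for Rpl27 and -0.00833 for Rpl6.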

Other observations

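Proteasome and endoplasmic reticulum genes gave no call at 12 h, 0 of 34 with a median of 0.154 and 0 of 27 with a median of 0.172. Without untreated replicate 3 the medians were 0.067 and -0.275, and the endoplasmic reticulum list had 1 lower call. On Cy5 and Cy3 arrays the medians were 0.585 and -0.3 for proteasome and 0.369 and -0.0597 for endoplasmic reticulum genes. No direction is therefore given for either list. Respiratory chain genes gave 1 lower call of 51 (Uqcrc2) with a median of -0.012, and hepatocyte transcription factors and nuclear receptors 1 higher (Esrrg, 0.60) and 1 lower (Nr5a2, -0.55) of 34. Hnf4a, the central hepatocyte transcription factor, differed by -0.26 (adjusted p = 0.38). Cxcl9, an interferon-gamma-induced chemokine, was lower by 1.16 ± 0.26 (adjusted p = 0.011) and was the only call among 26 chemokine and NF-kB response genes, lost without treated replicate 2. The platform repeats Gapdh on 230 tested probes, of which 1 was called, with a median difference of 0.0273.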
